A study of Mus musculus with 6 samples.

Results

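The laminin chain genes are the subject of these results: the alpha chain genes Lama1, Lama2, Lama3, Lama4 and Lama5, the beta chain genes Lamb1 and Lamb2, and the gamma chain genes Lamc1 and Lamc3. They were chosen by name and not by a threshold on their values, though with earlier results of these data known. They are 9 of the 33460 genes with an expression value. All 9 passed the filter on low values that left 14801 genes for testing. Symbols and positions come from the GENCODE annotation of the mouse genome build NCBIM37.

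RNA-seq was performed on brain tissue of NG2-DsRed/Pdgfrb-eGFP mice at postnatal day 6. In these mice DsRed is driven by the NG2 (Cspg4) promoter and eGFP by the Pdgfrb promoter (line Tg(Pdgfrb-eGFP)JN169Gsat/Mmucd), and both groups of samples carry both transgenes. The mural cell group holds 3 samples of cells positive for both reporters, sorted by fluorescence-activated cell sorting (FACS). The microvascular fragment group holds 3 samples of vessel pieces, freed with collagenase and captured with magnetic beads against CD31 (Pecam1), an endothelial surface protein. According to the methods, each of 3 brains was divided along the midline, and one side went to each preparation. The fragments contain endothelial cells (EC) together with the mural cells attached to them, so a ratio between the groups sets mural cells against a mixture that includes mural cells. Neither reporter separates pericytes (PC) from vascular smooth muscle cells (VSMC), and Pdgfrb can also be active in fibroblasts.

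Laminins are the cross-shaped proteins on which basement membranes assemble. Each is a trimer of one alpha, one beta and one gamma chain, and its name gives the numbers of the chains, so that laminin 411 holds alpha 4, beta 1 and gamma 1. The end of the alpha chain binds integrins and dystroglycan on the cell surface, while the gamma chain binds nidogen, which ties laminin to type IV collagen. In brain capillaries PC lie inside the vascular basement membrane, which they share with EC, and astrocyte endfeet contribute an outer layer.

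Expression was measured as FPKM, a count of sequenced fragments scaled by the depth of the library and by the length of the gene, so that chains can be compared with each other within a sample. The mural cell values rested on fewer sequenced fragments left after duplicate removal. There were 1.03 to 2.36 M on protein-coding genes against 5.40 to 5.98 M for the microvascular libraries, as recovered from the deposited values. These are not the numbers of reads sequenced, which the paper gives as far higher in every sample. Each laminin chain gene rested on approximately 11 to 4997 sequenced fragments in a mural cell library and on 245 to 4213 in a microvascular library. A gene was called enriched in mural cells if its mean FPKM ratio was above 2 and lower if it was under 0.5, in both cases with an adjusted p under 0.05 from limma on log2(FPKM + 1) and Benjamini-Hochberg adjustment over all tested genes. On this scale the fold changes of weakly expressed genes are understated. The p-values measure the spread between samples of 3 animals.

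The groups were checked against marker genes of cell types. All 11 mural cell markers were enriched, with ratios from 6.47 to 12.5, among them Pdgfrb (9.81) and Cspg4 (6.47), which drive the reporters. The 12 endothelial markers kept a median of 68.5% of their fragment level in the sorted cells, with summed FPKM of 1712 to 2212 against 2322 to 2734, and Pecam1 stood at 62.9%. Of 7 fibroblast markers, 5 were enriched and the summed FPKM was 502 to 689 in mural cells against 62.3 to 71.6 in fragments. All 8 microglia markers were lower in the sorted cells, at a median of 8.59% of the fragment level. None of 8 astrocyte, 5 oligodendrocyte progenitor and 5 neuron markers was called, but the summed astrocyte FPKM was 752 in mural cell replicate 3 against 257 and 213 in the other two. Of 3 choroid plexus and ependyma markers, Ttr was lower in mural cells, as was Kl, which passed the filter on low values only through the fragments. The summed FPKM was 197 to 244 against 643 to 1370.

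Most laminin chain genes were enriched in the mural cells. Lama2, Lama4, Lamb1, Lamb2, Lamc1 and Lamc3 passed the thresholds, Lama3 was lower, and Lama1 and Lama5 passed neither. Because whole cell populations were sequenced, fewer cells of a type and less RNA per cell cannot be told apart. The count of 6 enriched genes of 9 compares with 6.43% of all tested genes, and the count of 1 lower gene with 10.1%. Over all tested genes 952 were enriched and 1493 lower, but under quantile normalization 1209 were enriched and 1079 lower, with the counts of 6 and 1 among the chain genes as before. In the same 6 genes every mural cell sample lay above every fragment sample, an arrangement found in 16.5% of tested genes. In Lama1 and Lama3 every mural cell sample lay under every fragment sample, as in 24.5% of tested genes. The median ratio was 2.52 for the 9 chain genes and 0.943 for all tested genes, and the median log2 fold change was 1.33 and -0.12, respectively.

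**Figure D1:**
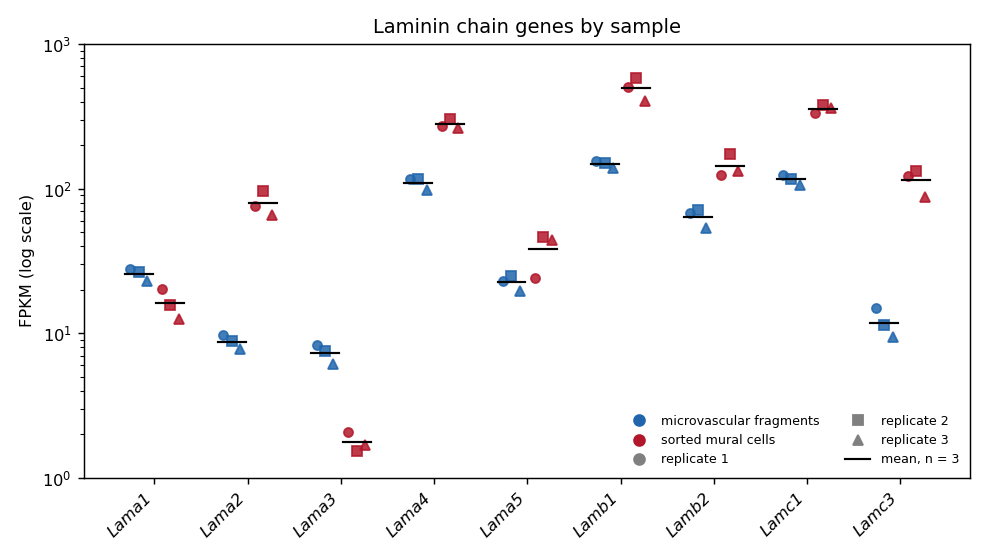
FPKM (log scale) of the 9 laminin chain genes in 3 samples of microvascular fragments (blue) and 3 samples of sorted mural cells (red), with a marker shape for each replicate number and a black line at each group mean. Mural cell samples lie above all fragment samples for 6 genes, under them for Lama1 and Lama3, and among them for Lama5, where replicate 1 (23.9) falls between the fragment samples.

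Lama4 was the most abundant alpha chain gene in both groups. It lies at chr10:38685321-38829994 on the plus strand and encodes alpha 4, the short alpha chain typical of blood vessels, which lacks the amino-terminal arm of the other large alpha chains. Its FPKM was 269, 304 and 261 among sorted cells compared with 117, 116 and 97.3 among fragments. Every mural cell sample thus exceeded every fragment sample by more than the spread within either group. The means were 278 ± 22.7 and 110 ± 11.3 (SD, n = 3 each), so that the ratio was 2.52 and the log2 fold change 1.33 ± 0.12 (SE, limma adjusted p = 4.3e-04).

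Lama2 showed the largest difference among the alpha chains. It lies at chr10:26701094-27336748 on the minus strand and encodes alpha 2, the alpha chain of muscle basement membranes, whose loss causes congenital muscular dystrophy. Its FPKM was 75.4, 96.7 and 66.0 among sorted cells compared with 9.67, 8.77 and 7.79 among fragments, and the lowest mural cell sample was several times the highest fragment sample. The means were 79.4 ± 15.7 and 8.74 ± 0.943, so that the ratio was 9.08 and the log2 fold change 3.03 ± 0.18 (limma adjusted p = 9.5e-05). This ratio lies inside the range of the 11 mural cell markers (6.47 to 12.5). The 5 enriched fibroblast markers had ratios from 6.17 for Lum to 12.9 for Col1a1. The other 2 fibroblast markers, Pdgfra (1.59) and Slc6a13 (2.19), were not called. The part of fibroblast RNA in the values of Lama2 and the other enriched chain genes was not tested.

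Lama5, at chr2:179911078-179960564 on the minus strand, encodes alpha 5, the broadly distributed alpha chain of capillary and epithelial basement membranes and a strong ligand of integrins. Its FPKM was 23.9, 46.4 and 44.2 among sorted cells compared with 23.1, 24.8 and 19.5 among fragments. Replicate 1 lay within the fragment samples, while the other two mural cell samples lay above all of them. The means were 38.2 ± 12.4 and 22.4 ± 2.71, and the log2 fold change of 0.69 ± 0.26 did not pass the test (limma adjusted p = 0.104). Over all alternatives the adjusted p ran from 0.008 to 0.280, and Lama5 was called in 1 of 17, the fit without mural cell replicate 1 (ratio 2.02, adjusted p = 0.008). The smooth muscle actin gene Acta2, a VSMC marker, was also lowest in that replicate (381, against 838 and 959). Of the other mural cell markers, Des, Dlk1 and Zic1 were lowest there too. Kcnj8, Anpep and Cd248 were highest there, and Pdgfrb, Cspg4, Rgs5 and Abcc9 lay between the other samples. The part of VSMC RNA in the Lama5 value was not tested.

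Lama1 and Lama3 had lower values in the sorted cells than in the fragments. Lama1 (chr17:68046605-68171985, plus strand) encodes alpha 1, the chain of the first embryonic basement membranes, which in the brain is known from the meningeal surface. Its FPKM was 20.2, 15.7 and 12.5 among sorted cells compared with 27.8, 26.5 and 22.8 among fragments, so the samples did not overlap. The means were 16.1 ± 3.84 and 25.7 ± 2.56, and the log2 fold change was -0.66 ± 0.20 (limma adjusted p = 0.054). Over 17 alternatives the adjusted p was between 0.024 and 0.191, and the ratio, from 0.549 to 0.698, was never under 0.5.

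Lama3 (chr18:12492533-12741522, plus strand) encodes alpha 3, the alpha chain of epithelial laminins. Its FPKM was 2.08, 1.52 and 1.68 among sorted cells compared with 8.24, 7.51 and 6.09 among fragments. The mural cell values were low throughout and rested on 37, 11 and 13 fragments. The gene was 4.14-fold lower in mural cells, with a log2 fold change of -1.58 ± 0.25 (limma adjusted p = 0.004). Among the fragment samples the choroid plexus gene Ttr (1358, 872 and 638) had the same order as Lama3. Lama1, Lama2, Lama4, Lamb1, Lamc1 and Lamc3 had it too, so the order was not particular to Lama3. The part of choroid plexus RNA in the Lama3 value was not tested.

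Both beta chain genes were enriched. Lamb1 (chr12:31950099-32014509, plus strand) encodes beta 1, the partner of most alpha chains, and was the highest laminin chain gene in either group. Its FPKM was 506, 582 and 402 among sorted cells compared with 156, 150 and 139 among fragments. The mural cell values were well apart from the fragment values although they spread more among themselves. The ratio of means was 3.35, with a log2 fold change of 1.72 ± 0.15 (limma adjusted p = 3.6e-04).

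Lamb2 (chr9:108382193-108392861, plus strand) encodes beta 2, which replaces beta 1 at the neuromuscular junction, in the glomerulus and in the wall of arteries. Its FPKM was 124, 172 and 133 among sorted cells compared with 67.9, 70.9 and 53.4 among fragments. The groups did not overlap, and the ratio of 2.23 was the smallest among the enriched chain genes. The log2 fold change was 1.14 ± 0.17 (limma adjusted p = 0.003), and without mural cell replicate 2 the ratio was 2.01.

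Both gamma chain genes were enriched as well. Lamc1 (chr1:155066052-155179916, minus strand) encodes gamma 1, the gamma chain of most laminins. Its FPKM was 331, 381 and 361 among sorted cells compared with 124, 117 and 106 among fragments. It was the chain gene with the smallest relative spread in mural cells, with a coefficient of variation of 7.02%. The ratio was 3.10 and the log2 fold change 1.62 ± 0.11 (limma adjusted p = 1.6e-04).

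Lamc3 (chr2:31742811-31802059, plus strand) encodes gamma 3, a chain of restricted expression whose loss causes malformations of the occipital cortex in humans. Its FPKM was 122, 132 and 87.3 among sorted cells compared with 14.8, 11.3 and 9.34 among fragments. The lowest mural cell sample was far above the highest fragment sample. With means of 114 ± 23.5 and 11.8 ± 2.77, the ratio of 9.64 was the largest of the 9 genes (log2 fold change 3.17 ± 0.22, limma adjusted p = 1.5e-04), and it too lay inside the range of the mural cell markers. The annotated gene Gm13441 on the opposite strand covers 382 of the 6091 exon bases of Lamc3, or 6.27%, and whether the counting used strand is not given in the sources used here.

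**Figure D2:**
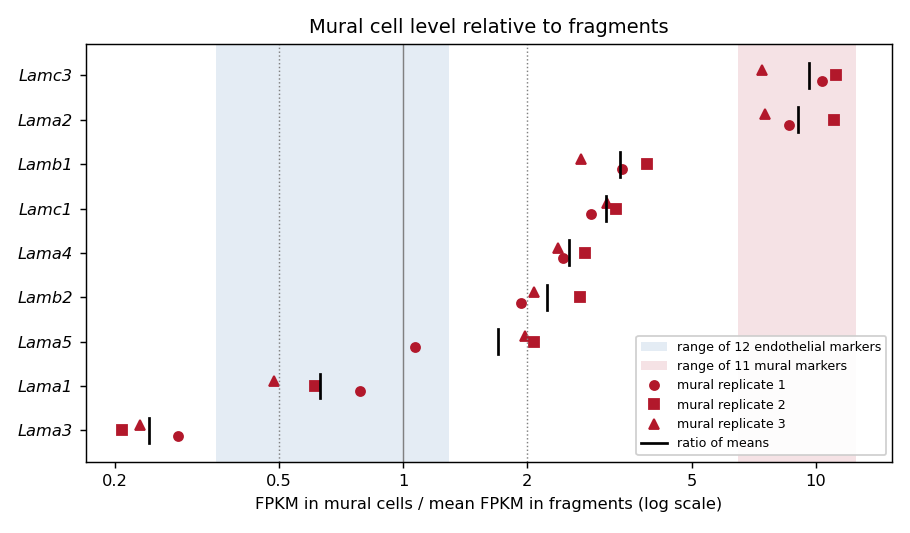
FPKM of each laminin chain gene in each of 3 mural cell samples divided by the mean of 3 fragment samples (log scale), with the ratio of means as a black bar, dotted lines at 0.5 and 2, and shaded ranges of the ratios of 12 endothelial (0.353 to 1.29) and 11 mural cell markers (6.47 to 12.5). Lama2 (9.08) and Lamc3 (9.64) lie in the mural cell marker range, Lamb1, Lamc1, Lama4, Lamb2 and Lama5 between the ranges, Lama1 (0.628) in the endothelial range and Lama3 (0.242) under it.

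Lamb3, a beta chain gene of epithelial laminins outside the 9 genes, was listed at 0 in 5 libraries and at 0.0563, or 1 fragment, in microvascular replicate 3. A count of 0 allows up to 3 fragments, equivalent to 0.435, 1.05 and 0.981 FPKM in the mural cell libraries and 0.168 and 0.183 in microvascular replicates 1 and 2.

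Within each group the chain genes spanned a wide range of levels. In mural cells the order by mean FPKM was Lamb1 (497), Lamc1 (358), Lama4 (278), Lamb2 (143), Lamc3 (114), Lama2 (79.4), Lama5 (38.2), Lama1 (16.1) and Lama3 (1.76). Neighbours in this order had separate samples except Lamb2 with Lamc3 and Lamc3 with Lama2, whose samples overlapped. Lamb1, Lamc1 and Lama4 ranked 49, 91 and 144 among all genes of the mural cell samples by mean FPKM. In fragments the order was Lamb1 (149), Lamc1 (116), Lama4 (110), Lamb2 (64.1), Lama1 (25.7), Lama5 (22.4), Lamc3 (11.8), Lama2 (8.74) and Lama3 (7.28). There the samples overlapped between Lamc1 and Lama4, between Lama1 and Lama5, between Lamc3 and Lama2, and between Lama2 and Lama3. Lama2 and Lamc3 thus stood above Lama1 and Lama5 in mural cells and below them in fragments.

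The make-up of each chain class was expressed as the share of each chain in the summed FPKM of its class, which does not depend on the scaling between libraries. Lama4 held the largest share of the alpha chains everywhere, with 68.8%, 65.4% and 67.7% in mural cells compared with 63.0%, 63.3% and 63.4% in fragments. Lama2 held 19.3%, 20.8% and 17.1% in mural cells against 5.20%, 4.77% and 5.07% in fragments, a difference of 14.1 percentage points. It was the second alpha chain in every mural cell sample and the fourth in every fragment sample. Lama1 held 5.17%, 3.39% and 3.25% of the alpha chains in mural cells against 14.9%, 14.4% and 14.9% in fragments, a difference of -10.8 points. Lama5 held 9.20% ± 2.76 against 12.8% ± 0.559, with 11.5% and 12.4% in the nearest samples and a difference of -3.65 points that was -2.11 without mural cell replicate 1, and Lama3 0.432% ± 0.102 against 4.16% ± 0.240.

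Of the beta chains, Lamb1 held 80.4%, 77.2% and 75.1% in mural cells compared with 69.6%, 68.0% and 72.3% in fragments, and Lamb2 the rest. The means differed by 7.57 points, and the nearest samples of the groups were 75.1% and 72.3%. Of the gamma chains, Lamc3 held 26.9%, 25.7% and 19.5% in mural cells compared with 10.7%, 8.79% and 8.10% in fragments, a difference of 14.9 points. Samples of the groups did not overlap for any of the 9 chains. Shares within a class depend on each other, so these are not separate results, and no such shares were computed for other genes. By FPKM, every mural cell sample lay above every fragment sample in 16.5% of tested genes and under in 24.5%. Over the 7 shares tested, counting the beta and the gamma pair once each, the exact two-sided permutation test gave p = 0.1 each time (0.1 after Benjamini-Hochberg adjustment), the smallest value that 3 samples against 3 can give.

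**Figure D3:**
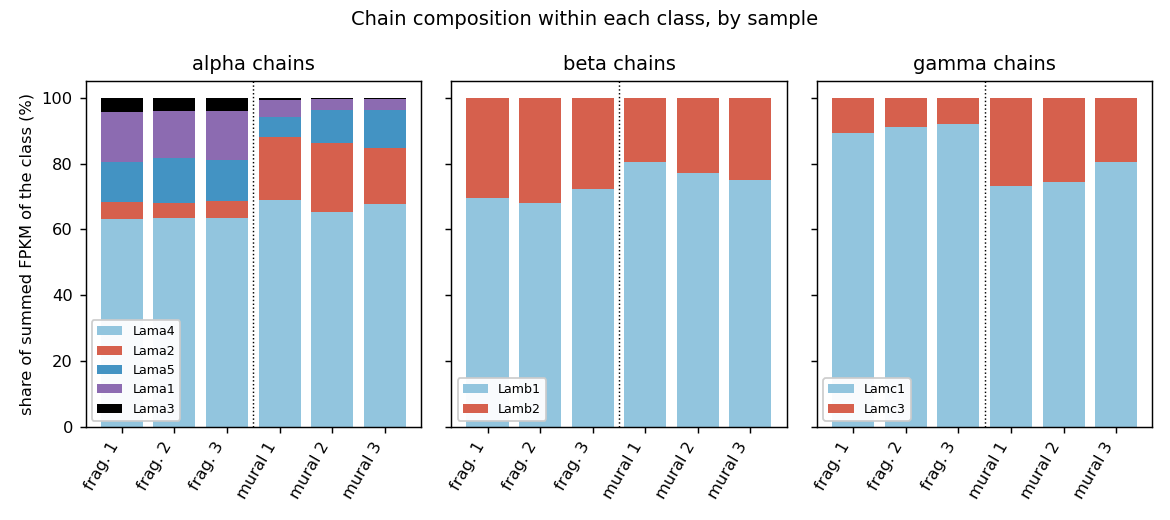
Share (%) of each chain gene in the summed FPKM of the alpha, beta and gamma chains, stacked to 100% for each of 3 fragment samples (left of the dotted line) and 3 mural cell samples. Lama4, Lamb1 and Lamc1 form the largest part of their class in all samples, and the parts of Lama2 (19.1% against 5.01% on average) and Lamc3 (24.0% against 9.18%) are larger in mural cells.

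The classes also stood in different proportion. Summed FPKM in mural cells and fragments was 413 ± 44.0 and 174 ± 18.2 for the alpha chains (ratio 2.37), 640 ± 110 and 213 ± 17.1 for the beta chains (3.01), and 472 ± 36.2 and 127 ± 11.7 for the gamma chains (3.70). The gamma chains summed to 1.16, 1.11 and 1.16 times the alpha chains in mural cells and to 0.746, 0.697 and 0.752 times in fragments. Gamma chain RNA was thus above alpha chain RNA in each mural cell sample and below it in each fragment sample (exact permutation p = 0.1, the smallest possible). Beta chain RNA exceeded alpha chain RNA in all 6 samples.

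These levels bound the RNA available for each laminin trimer, since a trimer needs all of its chains. For 11 trimers of these chains that are described in the literature, the FPKM of the scarcest chain was taken in each sample, as a description with no test. RNA levels do not show which trimers the cells assemble or secrete. The endothelial markers kept a median of 68.5% of their fragment level in the sorted cells. The part of endothelial RNA in the mural cell levels was not tested. All their chains were present in every sample. The scarcest was the alpha chain in 8 of the 11 trimers, the beta chain in 1 and the gamma chain in 1, in all samples, and it differed between the groups in 1.

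Laminin 411 had the highest level of its scarcest chain in both groups, set by Lama4 at 278 in mural cells and 110 in fragments (ratio 2.52). Laminin 421 followed, set by Lamb2 at 143 and 64.1 (2.23). For laminin 423 the scarcest chain was Lamc3, with 114 in mural cells and 11.8 in fragments, a ratio of 9.64, but 3.78 by the geometric mean of its chains. Laminins 211, 221 and 213 were set by Lama2 at 79.4 and 8.74 (9.08). In mural cells 423 and the alpha 2 laminins therefore came after 411 and 421, whereas in fragments they came after the alpha 1 laminins and laminins 511 and 521.

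Laminins 511 and 521, set by Lama5, stood at 38.2 and 22.4 (ratio 1.70), with the overlap of replicate 1 described for the gene. Laminin 523 was limited by Lama5 in mural cells and by Lamc3 in fragments, at 38.2 and 11.8 (3.23). Laminins 111 and 121 were set by Lama1 at 16.1 and 25.7 (0.628). By the geometric mean of the chains in place of the scarcest, their ratios were 1.86 and 1.62, above 1.

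Several receptors for laminin were enriched. Of 10 receptor genes, 5 were enriched (6.43% of all tested genes), 1 was lower (10.1%) and 4 were not called, with a median ratio of 2.05 against 0.943 for all tested genes. Itga7 encodes the integrin alpha chain of muscle, which with beta 1 binds laminins of the alpha 2 type. Its FPKM was 48.9, 83.5 and 65.3 among sorted cells compared with 5.57, 6.53 and 5.41 among fragments, with no overlap. The ratio was 11.3 and the log2 fold change 3.26 ± 0.22 (limma adjusted p = 1.3e-04). Itga1, an integrin alpha chain for collagen and laminin, had a ratio of 4.37, and Dag1, which encodes dystroglycan, one of 2.47. Mcam, whose product (CD146) binds laminin 411, was the highest receptor gene in mural cells, at 754 ± 90.0 against 129 ± 12.2 (ratio 5.87, limma adjusted p = 8.5e-05). Bcam, the Lutheran receptor for alpha 5 laminins, had 138 ± 30.0 against 44.1 ± 1.52 (3.12).

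Itgb4, the integrin beta chain that pairs with alpha 6 in hemidesmosomes of epithelia, was the receptor gene called lower. Its FPKM was 0.105, 0.749 and 0.666 among sorted cells compared with 13.6, 9.43 and 4.62 among fragments. The ratio was 0.0550. Since every mural cell value was under 1, the gene passed the filter only through the fragments, where it was high, so its call is conditioned on the difference and is given as a description. The fragment samples had the same order as Ttr, Lama3 and most other chain genes. The part of choroid plexus RNA in the Itgb4 value was not tested. With any microvascular sample left out, the gene no longer reached an FPKM of 1 in 3 samples and was not tested.

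Itga6, the partner of beta 1 or beta 4 in laminin receptors, was lower with an adjusted p of 0.003 but within 2-fold, at 64.6 ± 5.19 in mural cells and 123 ± 15.3 in fragments (ratio 0.527). Itgb1, the common beta chain, was 1.62 times as high in mural cells, at 328 ± 43.6 against 202 ± 6.69 (adjusted p = 0.008). Itga3 (29.4 ± 10.2 against 22.9 ± 4.07, adjusted p = 0.503) and Itga2 (2.65 ± 0.736 against 5.86 ± 1.99, adjusted p = 0.083) did not pass the limma test. The 3 alpha chain genes of the integrins that bind laminin but not collagen, Itga3, Itga6 and Itga7, thus had ratios of 1.28, 0.527 and 11.3.

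Partners of laminin in the basement membrane were higher in every mural cell sample than in any fragment sample for all 7 genes, against 16.5% of tested genes. Of these, 4 were enriched (6.43% of all tested genes) and none was lower (10.1%). The median ratio was 2.89 against 0.943 for all tested genes. Col4a1 and Col4a2, the chains of the main vascular type IV collagen, stood at 1175 ± 234 and 1004 ± 70.2 in mural cells and at 299 ± 54.8 and 336 ± 42.3 in fragments, ratios of 3.92 and 2.99. Nid1, the nidogen that joins gamma 1 to type IV collagen, had 407 ± 39.5 against 141 ± 5.93 (ratio 2.89, limma adjusted p = 1.9e-04). These ratios are near those of Lamb1 (3.35) and Lamc1 (3.10).

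Ntn4, a netrin that binds the short arms of laminin and opposes its polymerization, had an FPKM of 16.1, 21.1 and 52.8 in mural cells and a mean of 4.23 ± 0.652 in fragments. The enrichment (ratio 7.08, limma adjusted p = 0.006) rested in size on mural cell replicate 3. Without that sample the ratio was 4.38 (limma adjusted p = 0.003), and Ntn4 was still called. The same sample had the highest summed FPKM of astrocyte markers, and the part of astrocyte RNA in the Ntn4 value was not tested. Agrn, which encodes agrin, a proteoglycan that binds laminin and dystroglycan, had a ratio of 1.95 (limma adjusted p = 0.001) and was not called. Its ratio was 2.02 without mural cell replicate 3, where it was called, and 2.00 under median-ratio scaling. In both settings 5 partner genes were enriched. The ratio was 1.32 for Nid2 and 1.25 for Hspg2 (perlecan), with adjusted p of 0.028 and 0.074.

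**Figure D4:**
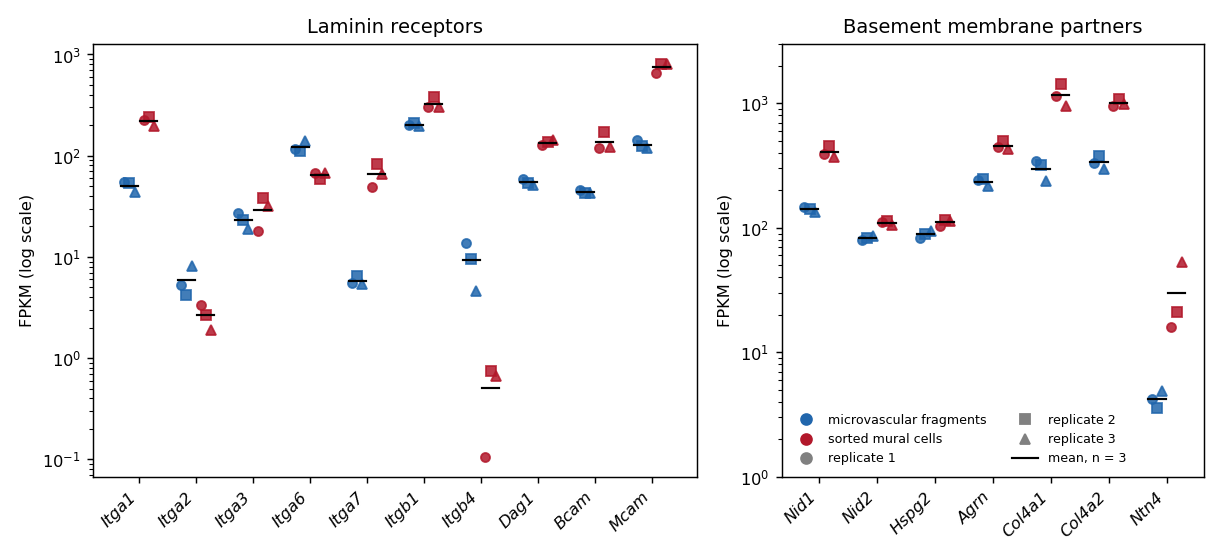
FPKM (log scale) of 10 laminin receptor genes and 7 genes of other basement membrane components in 3 fragment samples (blue) and 3 mural cell samples (red), with a black line at each group mean. Itga7 (ratio 11.3) and Mcam (5.87) lie far higher in mural cells and Itgb4 (0.0550) far lower, and all 7 partner genes lie higher in each mural cell sample.

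Dystroglycan is linked inside the cell to dystrophin and its associated proteins. Of 13 genes of this complex, 12 were tested, 4 were enriched and none was lower, against 6.43% and 10.1% of all tested genes. The median ratio was 1.28, against 0.943. Dmd, which encodes dystrophin, was the highest of them, with an FPKM of 201, 264 and 181 among sorted cells compared with 31.5, 32.9 and 23.4 among fragments. Mural cells and fragments were well apart (ratio 7.36, limma adjusted p = 1.3e-04). Sgca, the sarcoglycan of striated muscle, stood at 6.57 ± 2.77 against 0.551 ± 0.0606 (11.9), and Sspn (sarcospan) and Sntb1 (a syntrophin) had ratios of 3.98 and 4.73. Sgca rested on 4 sequenced fragments in each microvascular library and passed the filter only through the mural cells, so its call is a description, and the other 3 enriched genes passed in both groups.

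For each chain gene the tested protein-coding gene with the most similar profile was found, among 13405 genes, by the root-mean-square difference of centred log2(FPKM + 1) over the 6 samples. For Lama2 this was Gucy1a3, a subunit of soluble guanylate cyclase, at a difference of 0.048 (ratio 8.54), and for Lamc3 it was E130203B14Rik at 0.060 (9.80). For Lamc1 it was Mmp14, a membrane-bound metalloproteinase, at 0.044, for Lama4 Arhgef40 at 0.038, for Lamb1 Fam107b at 0.073, for Lamb2 Sesn3 at 0.064, for Lama5 Brf2 at 0.077 and for Lama1 the endothelial receptor gene Robo4 at 0.059. For Lama3 the nearest was Chdh, at 0.093. The mean FPKM of Chdh was 0.0719 in mural cells and 2.57 in fragments, a ratio of 0.0280 beside 0.242 for Lama3. At such low levels the 1 added before taking logs shrinks fold changes, so this match does not show a like ratio. Chdh passed the filter on low values only through the fragments.

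Among the family itself, Lama2 and Lamc3 were each other's nearest member at a difference of 0.149, with 10 and 8 outside genes nearer. Lamb1 and Lamc1 were likewise each other's nearest at 0.160, and Lama4 and Lamb2 at 0.133. Lama1 and Lama3 were nearest to each other only at 0.482. With 6 samples in 2 groups, genes with a like fold change between the groups have small differences.

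Windows before RefSeq start sites are described for 4 of the 9 genes, Lama2, Lama5, Lamb1 and Lamb2, and not for the others. The 250 bases before the RefSeq start of Lama2 and Lamb1 are shown, because these enriched genes differ in fold change and in base composition. The sequences are from RefSeq (table of build GRCm38.p6) and were placed by exact match in NCBIM37, at chr10:27336749-27336998 (minus) for Lama2 and chr12:31949908-31950157 (plus) for Lamb1. The RefSeq start of Lamb1 lies downstream of the GENCODE start given above, so the end of this window is inside the gene as positioned there. Both are written 5′ to 3′ on the strand of the gene. Capitals mark the CArG box in Lama2 and the GC boxes, GGGCGG on either strand, in Lamb1.
Lama2: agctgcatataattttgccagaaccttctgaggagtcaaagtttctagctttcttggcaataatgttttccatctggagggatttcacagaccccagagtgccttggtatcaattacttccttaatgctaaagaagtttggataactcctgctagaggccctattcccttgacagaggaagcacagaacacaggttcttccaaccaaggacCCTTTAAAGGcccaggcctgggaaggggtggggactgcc
Lamb1: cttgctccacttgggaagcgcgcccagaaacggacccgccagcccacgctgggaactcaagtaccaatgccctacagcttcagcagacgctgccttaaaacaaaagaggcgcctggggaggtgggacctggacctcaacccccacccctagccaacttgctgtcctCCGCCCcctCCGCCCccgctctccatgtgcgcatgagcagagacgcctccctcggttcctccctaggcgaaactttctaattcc
The Lama2 window had a GC content of 47.2%, no CpG, no GC box and 1 CArG box, the motif known for binding serum response factor. A CArG box was found in 1.47% and a GC box in 32.7% of 32851 windows of the same length, whose median GC content was 52.4% with a median of 6 CpG.

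The Lamb1 window had 62.0% GC, 14 CpG and 2 GC boxes. The Lama5 window was the richest, with 72.4% GC, 19 CpG and 4 GC boxes, and the Lamb2 window had 43.6% GC, 3 CpG and no GC box. The CCAAT motif was found in Lamb1 alone of the 4 and in 33.8% of all windows, the motif TATAAA in none of the 4 and in 12.4% of all, and the E-box CANNTG in all 4 and in 66.2% of all, with both strands searched.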

How the data were processed

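Total RNA of 3 samples of FACS sorted mural cells and 3 samples of microvascular fragments was depleted of ribosomal RNA and sequenced by the authors. The authors deposited one table per sample, which gives the FPKM of every Ensembl gene. For these FPKM values the authors aligned the reads to NCBIM37 with TopHat2 version 2.0.4, removed duplicates with Picard version 1.92 and ran Cufflinks version 2.2.1. Its scaling between libraries and its use of strand are not given in the sources used here. Removal of duplicates can lower the values of the most abundant genes, and reads that several genes share may be split between them.

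Repeated lines of 9 identifiers, which held the same values, were dropped. Genes that reached an FPKM of 1 in 3 or more samples were fitted as log2(FPKM + 1) with limma 3.58.1 (R 4.3.3) and an intensity trend, with both groups and no covariates, and Benjamini-Hochberg adjustment over all 14801 genes. Ratios are of mean FPKM. Since FPKM are not counts, no count test was used. Shares were compared with exact two-sided permutation tests. Tables were made with Python 3.11.15, pandas 2.3.3, NumPy 2.4.6 and SciPy 1.17.1.

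The FPKM that 1 fragment is worth was worked out for each library from low values of genes with a single transcript, of which 97.6% to 99.1% came out whole within 0.05 fragments. Fragment numbers of genes with several transcripts are approximate. Median-ratio size factors were 0.992 to 1.02.

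The laminin chain genes, the lists of receptors, basement membrane partners, dystroglycan genes and markers, the trimers, and the rule for named genes were chosen with earlier results of these data known. The rule names the genes of the laminin, receptor and partner lists, those past the thresholds and the highest by mean FPKM in the dystroglycan lists, and the nearest protein-coding gene of each chain gene. Utrn and individual marker genes beyond Pecam1, Pdgfrb and Cspg4 were named after their values were seen. Some items that the rule covers are not reported here.

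The fit was tested on simulated data with 200 of 14935 genes changed 4-fold. It recovered 66 of 100 raised and 37 of 100 lowered genes, and 40 of 143 calls were false. Among genes with a mean FPKM of at least 5 it recovered 69.9% of the raised and 54.8% of the lowered genes, and 4 of 103 calls were false. With genes at 0 in a whole group left out, 5 of 107 calls were false. In the measured data the same step gave 936 enriched and 1158 lower genes, with 6 and 1 among the chain genes. The alternatives were other scalings, pseudocounts, filters, gene sets and thresholds, no trend, the limma fold change as criterion, the replicate number as a block, leaving out each sample, other denominators of the shares, and another summary over the chains of a trimer.

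The labels do not say that equal replicate numbers mark the same animal. Deviations from the group means of equally numbered samples had correlations of 0.0818, 0.0203 and 0.0454 across 14801 genes, so the numbers were not used as pairs.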

Additional observations from a re-analysis of the deposited data

How the results depend on the processing

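All 9 laminin chain genes kept the direction of their log2 fold change under each of 17 alternatives per gene. For most of these settings that outcome was fixed in advance. Other filters, gene sets, thresholds, the trend and the block leave the fold change itself as it is. Leaving out 1 sample cannot reverse a gene whose groups do not overlap, which left only Lama5 open to it. The count of enriched chain genes was 6 to 7 with single samples left out, the 7th being Lama5 without mural cell replicate 1, and the count of lower ones stayed at 1. Lama1 passed the adjusted p, but not the 2-fold threshold, at a filter of FPKM 5 (0.0486), with protein-coding genes only (0.0497) and without mural cell replicate 1 (0.0239). With the replicate number as a block, 6 chain genes were enriched and 1 was lower, and over all genes 900 were enriched and 1344 lower instead of 952 and 1493; Lama1 then had an adjusted p of 0.05 and Nid2 one of 0.0712, both within 2-fold, and no chain, receptor or partner gene became or ceased to be called. The adjusted p of Nid2 was also above 0.05 under quantile normalization, without a trend and in 5 of the 6 fits without one sample, up to 0.140. Over all tested genes the count of lower genes was 948 at a filter of FPKM 5, 845 at an adjusted p under 0.01, and 607 to 1733 with single samples left out, lowest without microvascular replicate 3 (654 without replicate 1 and 702 without replicate 2). The count of lower receptors was 0 at a filter of FPKM 5 and 0 to 1 with samples left out, because Itgb4 was then not tested. Enriched partner genes numbered 4 to 5 with samples left out and 5 under median-ratio scaling. The count of enriched dystroglycan complex genes was 2 at a filter of FPKM 5, which left fewer genes tested, and that of enriched glycosylation genes was 0 to 1 with samples left out, with 0 without microvascular replicate 1 or 3. Quantile normalization moved the median log2 fold change of all tested genes from -0.12 to 0.01. The Lama3 share difference was -3.83 to -3.59 points with samples left out, and that of Lama5 -4.79 to -2.11. With the geometric mean of the chains in place of the scarcest, the ratio was 1.86 for laminin 111, 1.62 for 121, 4.54 for 211, 3.97 for 221, 6.65 for 213, 2.96 for 411, 3.78 for 423, 2.58 for 511 and 2.26 for 521, so that the alpha 1 laminins moved from under 1 to above 1. Depth limits the genes whose values rest on few fragments, among them Lama3, Lamb3, Itga2 and Itgb4 in mural cells and Sgca in both groups.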

Other observations

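Of 12 genes for enzymes that build the laminin-binding glycan of dystroglycan, all tested, 1 was enriched in mural cells, none was lower and 11 were not called, against 6.43% enriched and 10.1% lower among all tested genes. The count of 1 fell to 0 without microvascular replicate 1 or 3. Their median ratio was 1.22, against 0.943 for all tested genes. Ispd, which makes the nucleotide sugar used for this glycan, had an FPKM of 5.66, 5.39 and 5.61 among sorted cells compared with 1.67, 1.99 and 1.81 among fragments, with no overlap (ratio 3.04, limma adjusted p = 0.010). The highest of the 12 by mean FPKM was Pomgnt1, at 28.5 ± 4.60 in mural cells and 19.3 ± 2.62 in fragments (SD, n = 3 each). Utrn, which encodes utrophin, the relative of dystrophin, stood at 97.0 ± 1.48 and 84.2 ± 17.4 (limma adjusted p = 0.385), a ratio of 1.15 beside 7.36 for Dmd. The difference between these ratios was not tested.

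The spread among mural cell samples differed between chain genes. The coefficient of variation was 7.02% for Lamc1 and 8.19% for Lama4 but 32.5% for Lama5, where replicate 1 had 23.9 and the other two had 46.4 and 44.2. Itga3 had its lowest mural cell value in the same replicate (18.1, against 38.0 and 31.9). This was not particular to Itga3, since Itga7, Itgb4, Dag1, Bcam, Mcam, Lamb2 and Lamc1 were lowest there too. The receptor genes Itga1, Itga2, Itga6 and Itgb1 were not.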
